A study of Mus musculus with 4 samples.

Results

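The 10 genes described here belong to the Notch pathway: the receptors Notch1, Notch2, Notch3 and Notch4, the ligands Jag1, Jag2, Dll1 and Dll4, and the target genes Hes1 and Hey1. They were chosen by name, matched by Ensembl identifier, and are 10 of the 30406 genes that all 4 libraries measured. For each gene the UMIs (counted RNA molecules) were summed within each library and each cell class, and classes were set by raw counts of lineage markers that include no Notch gene.

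Notch receptors sit on the cell surface and are switched on by Jagged and Delta-like ligands on a neighbouring cell. Cleavage then frees the receptor's intracellular domain, which enters the nucleus and joins the DNA-binding protein RBPJ to activate genes of the Hes and Hey families, themselves transcriptional repressors. In the liver and its ducts the pathway is known for its part in biliary differentiation and duct formation, and in blood vessels for arterial identity and the maintenance of smooth muscle.

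The study profiled dissociated cells of the mouse common bile duct, the large duct outside the liver, with the 10x Chromium 3′ method. Wild-type ducts gave 3 libraries. The other library came from ducts in which Ctnnb1, which encodes beta-catenin, had been activated in a mosaic of cells; its label names it Prom1_BcatGOF and it is here called the GOF library. The labels name no treatment for any library. The labels describe neither the construct nor the age of the mice, and Prom1 in the name is the one hint at what drove recombination. Whether each wild-type library is a different animal is not stated either. The p-values therefore reflect the spread of these 3 libraries alone, possibly a technical one, and the lone GOF library is assumed to vary like them.

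Depth differed between the libraries. Totals were 43737469, 17358894 and 9558637 UMIs in wild-type libraries 1, 2 and 3 and 113596685 UMIs in the GOF library. The gates placed 83.5% to 91.4% of kept cells in a class, and 3.29% to 10.0% of cells carried markers of more than 1 lineage and were left out. Levels are in CPM, the usual depth-scaled unit: the UMIs of a gene over all UMIs of its class in that library. They compare a gene between classes, not 1 gene with another. Values are given in the order wild-type 1, 2 and 3, then GOF where it is shown, and means are ± SD over the 3 wild-type libraries. Of genes that the gates did not use, Gnat3, a taste-type G protein of tuft cells, was at 87.9, 63.9 and 110 CPM in tuft-like cells and at most at 0.394 CPM in cholangiocyte-like cells. Other such genes did not separate the classes: the keratin Krt19 was at 2162, 1090 and 709 CPM in cholangiocyte-like cells and still at 990, 895 and 339 CPM in mesothelial-like cells, the tuft gene Ptgs1 averaged 137 CPM in both tuft-like and mesothelial-like cells, and the endothelial gene Kdr was higher in lymphatic (476, 553 and 594 CPM) than in blood endothelial-like cells (225, 163 and 177 CPM). No Schwann-like cell was found, and dendritic-like, acinar-like and arterial-like cells were too few to compare.

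The vascular results turn on Notch3, found in mural-like cells (smooth muscle and pericytes), and Dll4, found in endothelial-like cells. The 250 bases before their start sites are shown, from RefSeq (GRCm38.p6), so that the regulatory sequence next to these 2 genes can be read beside their levels. Notch3 lies at chr17:32166891-32167140 (minus strand) and Dll4 at chr2:119325534-119325783 (plus strand), where the window overlaps an exon of the antisense gene Gm14207. Capitals mark the GC box GGGCGG, searched on both strands.
Notch3: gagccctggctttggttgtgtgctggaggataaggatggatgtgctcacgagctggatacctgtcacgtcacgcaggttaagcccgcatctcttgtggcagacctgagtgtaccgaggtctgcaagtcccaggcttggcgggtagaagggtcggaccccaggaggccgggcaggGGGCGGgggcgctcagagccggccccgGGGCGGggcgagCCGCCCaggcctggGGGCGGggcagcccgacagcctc
Dll4: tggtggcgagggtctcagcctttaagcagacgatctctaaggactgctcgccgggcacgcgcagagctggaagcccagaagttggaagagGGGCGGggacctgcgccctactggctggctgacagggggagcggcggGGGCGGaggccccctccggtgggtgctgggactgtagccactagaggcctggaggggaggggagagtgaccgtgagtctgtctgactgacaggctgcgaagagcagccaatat
The Notch3 window held 4 GC boxes, at 76, 49, 37 and 23 bases before the start, and the Dll4 window 2, at 160 and 113 bases. A GC box was present in 32.7% of 32851 windows of this length, counted over all RefSeq promoters. The core motif of RBPJ, TGGGAA on either strand, was present in 21.6% of those windows and in none of the windows of the 8 genes found in the table, which are all but Hes1 and Hey1. These matches describe letters only; nothing in the libraries measures binding.

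In the wild-type duct the 10 genes divided by compartment. Hes1 was highest in epithelium, Dll1 in cholangiocyte-like, tuft-like and blood endothelial-like cells, and Notch3 and Jag1 in mural-like cells. Notch1 and Hey1 had their highest mean in lymphatic endothelial-like cells, and Dll4 was about level in the lymphatic and blood endothelial-like classes. For Notch1 and Dll4 edgeR did not separate these classes. Jag2 was highest in blood endothelial-like cells, and Notch2 in neutrophil-like and macrophage- and monocyte-like cells. Notch4 stayed below 10 CPM in every class on average. Across the 9 classes with at least 20 cells in every wild-type library, edgeR could test 7 of the 10 genes, each class against the mean of the other classes; Notch3, Notch4 and Hey1 did not pass its filter on low counts.

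**Figure D1:**
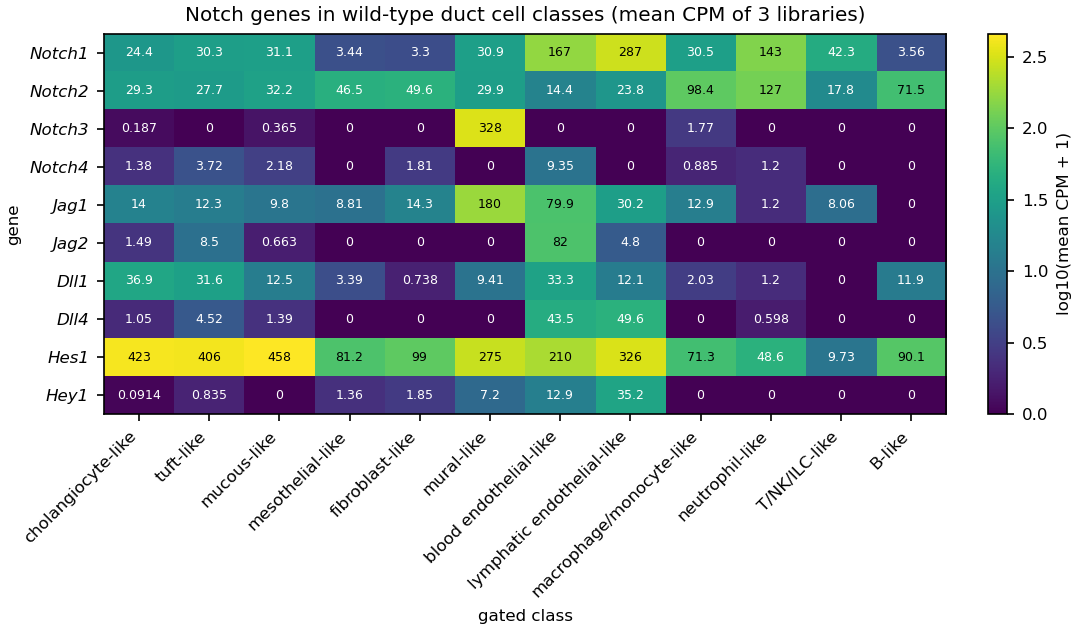
Mean wild-type level of the 10 Notch genes (rows) in 12 cell classes (columns), with the mean CPM of 3 libraries printed in each tile and the shade giving log10 of CPM + 1. Hes1 fills the epithelial columns, with 423 CPM in cholangiocyte-like cells, while Notch3 stands alone in the mural-like column with 328 CPM.

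Counts of called genes (Benjamini-Hochberg adjusted p under 0.05 over all genes tested) are read against the share of all 8779 genes called in the same comparison. Among the 7 tested, cholangiocyte-like cells had 2 higher and 0 lower, where 27.3% of all genes were higher and 9.07% lower. Tuft-like cells had 3 higher and 0 lower (all genes 21.9% and 7.62%), and mucous-like cells 1 higher and 0 lower (22.5% and 9.74%), close to the background. Mesothelial-like cells had 0 higher and 2 lower (19.8% and 5.48%), and fibroblast-like cells 0 higher and 3 lower (18.1% and 5.43%). Blood endothelial-like cells had 4 higher and 1 lower (9.59% and 3.16%), and lymphatic endothelial-like cells 2 higher and 0 lower (13.4% and 5.42%). The filter on low counts keeps a gene that is high in only a few sums. In the fitted classes outside endothelium, the highest library was at 10.0 CPM for Jag2, 7.52 CPM for Dll4 and 20.1 CPM for Jag1. These genes could thus enter the test through endothelial-like sums, and their part in the endothelial counts is no separate support. Macrophage- and monocyte-like cells had 1 higher and 2 lower (23.5% and 12.5%), and neutrophil-like cells 2 higher and 1 lower (19.8% and 24.1%).

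Gene positions are those of GRCm38 in GENCODE M21. Notch1 (ENSMUSG00000026923, chr2:26457903-26516663, minus strand), a receptor of broad use, was at 353, 254 and 253 CPM in lymphatic endothelial-like cells, from 49, 34 and 29 UMIs. Every one of these libraries lay above every other class except neutrophil-like cells and the few arterial-like cells, and the difference from the other classes was 3.34 on the log2 scale (SE 0.34, adjusted p = 2.84e-09). Blood endothelial-like cells followed with 96.6, 228 and 177 CPM (log2 2.35, SE 0.48, adjusted p = 0.000548), and the step between the 2 endothelial classes did not pass the test (log2 -0.88, SE 0.47, adjusted p = 0.405). The neutrophil-like value was carried by 1 library, with 145, 282 and 0 CPM from 81, 6 and 0 UMIs; its call (adjusted p = 7.97e-07) was lost without wild-type library 1 (adjusted p = 0.289). In cholangiocyte-like cells Notch1 was at 12.0, 24.2 and 37.0 CPM, a spread as large as its distance from tuft-like (30.3 ± 12.2) and mucous-like cells (31.1 ± 9.56). At the low end, 3 UMIs in mesothelial-like and 3 UMIs in fibroblast-like cells gave ratios to all other gated cells of 0.105 (95% interval 0.0217 to 0.308) and 0.129 (0.0266 to 0.378); both were called lower, fibroblast-like cells not under the stricter gate or without wild-type library 2 (adjusted p = 0.0627). All such intervals cover counting error only.

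Notch2 (ENSMUSG00000027878, chr3:98013527-98150361, plus strand), the receptor whose loss in people and mice is known to impair bile duct formation, was the most even of the 4. It was at 112, 61.0 and 122 CPM in macrophage- and monocyte-like cells (log2 1.49, SE 0.24, adjusted p = 7.48e-06) and at 210, 94.1 and 77.6 CPM in neutrophil-like cells (log2 2.44, adjusted p = 4.66e-08, but 0.363 without wild-type library 1). Cholangiocyte-like cells held 34.9, 27.1 and 25.7 CPM, 29.3 ± 4.97 on average. Mesothelial-like cells (46.5 ± 14.3), fibroblast-like cells (49.6 ± 34.0), mucous-like cells (32.2 ± 8.17) and tuft-like cells (27.7 ± 8.38) lay around that level without a call. In blood endothelial-like cells 3 UMIs were counted in all, a ratio to other gated cells of 0.342 (0.0705 to 1.00); that call (adjusted p = 0.0414) was lost without wild-type library 1 or 3, under the stricter gate and with total-UMI scaling (adjusted p = 0.0618).

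Notch3 (ENSMUSG00000038146, chr17:32120820-32166852, minus strand), the receptor of vascular smooth muscle and pericytes, was at 395, 339 and 248 CPM in mural-like cells, from 14, 37 and 40 UMIs in 8, 37 and 57 cells. The other gated wild-type cells held 17 Notch3 UMIs together, so the mural-like level was 1111 times theirs (657 to 1989). Fibroblast-like cells, mesothelial-like cells, tuft-like cells and both endothelial classes had no wild-type Notch3 UMI; against fibroblast-like cells, with a floor of 3 counts over the group, mural-like cells were at least 105-fold higher. After every cell was thinned to 2000 UMIs, which leaves out shallower cells, a Notch3 UMI was seen in 75.0% (34.9 to 96.8), 46.4% (27.5 to 66.1) and 30.8% (17.0 to 47.6) of mural-like cells, where intervals are exact Clopper-Pearson. In cholangiocyte-like cells the same share was 0.0341%, 0% and 0%. Without thinning the mural-like shares were 100%, 56.8% and 42.1%, at median depths of 3750.5, 2813.0 and 2409.0 UMIs; the cholangiocyte-like depths were 7605.5, 3563.0 and 2404.0 UMIs.

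Since wild-type library 1 held 8 mural-like cells, this class was compared in an added fit of classes with at least 5 cells, chosen after the counts were seen. Notch3 passed the filter on low counts here through mural-like sums, since no other class exceeded 5.31 CPM in any wild-type library. Its calls, and its place in the counts of called genes, therefore add no support beyond its levels. There 3 of the 8 genes tested were higher in mural-like cells than in the other classes (12.5% of all genes were higher): Notch3 (adjusted p = 1.22e-14), Jag1 (log2 4.25, SE 0.45, adjusted p = 2.38e-10) and Hes1 (log2 1.09, SE 0.29, adjusted p = 0.00498). Against fibroblast-like cells, the other stromal class, 4 of 8 were higher (6.93% of all genes): Notch3 (adjusted p = 4.03e-08), Jag1 (log2 3.44, SE 0.53, adjusted p = 2.26e-06), Hes1 (log2 1.5, SE 0.38, adjusted p = 0.00266) and Notch1 (pooled ratio 10.4, 2.60 to 59.9, on 9 against 3 UMIs; adjusted p = 0.0366). Acta2, the smooth muscle actin that the gate did not use, was at 23763, 25973 and 23576 CPM in wild-type mural-like cells, and the endothelial gene Kdr was at 0 in all 3 libraries.

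Notch4 (ENSMUSG00000015468, chr17:34564268-34588503, plus strand), known as an endothelial receptor, was barely sampled: blood endothelial-like cells held 0, 1 and 1 UMIs and lymphatic endothelial-like cells 0. The 2 blood endothelial UMIs gave a ratio to other gated cells of 6.62 (0.788 to 24.7), so an endothelial preference was not detectable in the wild-type libraries at this depth. The deeper GOF library held 7 UMIs in blood endothelial-like cells (28.0 CPM), 5 of them in arterial-like cells, and 1.05 CPM in cholangiocyte-like cells. Cholangiocyte-like cells carried 57 wild-type UMIs at 1.38 ± 0.457 CPM, and tuft-like cells 12 at 3.72 ± 1.56 CPM, 2.57 times the cholangiocyte-like level when pooled (1.25 to 4.84).

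Among the ligands, Jag1 (ENSMUSG00000027276, chr2:137081456-137116644, minus strand), mutated in the bile duct disorder Alagille syndrome, was at 282, 110 and 149 CPM in mural-like cells, from 10, 12 and 24 UMIs. Pooled, that was 10.7 times the fibroblast-like level (5.85 to 20.6). Blood endothelial-like cells were uneven, with 53.6, 163 and 23.5 CPM (log2 2.47, SE 0.55, adjusted p = 0.00157), and the call was lost without wild-type library 2 (adjusted p = 0.318). Within them the few cells with arterial markers had 326, 509 and 116 CPM, from 2, 3 and 1 UMIs, and the others 34.5, 126 and 13.1 CPM. Epithelium held less per cell but most of the UMIs, 771 in cholangiocyte-like cells at 15.9, 16.5 and 9.58 CPM, and that level was not set apart from the other classes (log2 0.23, SE 0.30, adjusted p = 0.631).

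Jag2 (ENSMUSG00000002799, chr12:112907819-112929776, minus strand) was at 64.4, 146 and 35.3 CPM in blood endothelial-like cells, from 6, 9 and 3 UMIs, and at 14.4, 0 and 0 CPM in lymphatic endothelial-like cells. The 2 classes did not overlap. Blood exceeded lymphatic 14.5-fold when pooled (3.48 to 129). Jag2 was the 1 of 7 genes called in that comparison (2.52% of all genes were higher in blood, edgeR adjusted p = 0.0211). It could pass the filter on low counts through blood endothelial-like sums, so the count is no separate support. The call was lost without wild-type library 2 or 3 (edgeR adjusted p = 0.456 and 0.126). Tuft-like cells, the chemosensory cells of the duct, held 7.16, 8.30 and 10.0 CPM against 1.30, 1.87 and 1.31 CPM in cholangiocyte-like cells, again with no overlap. The pooled ratio was 5.49 (3.5 to 8.45), and Jag2 was the 1 of 7 genes called between them (2.77% of all genes were higher in tuft-like cells; log2 2.24, SE 0.59, adjusted p = 0.0367), a call lost when any 1 wild-type library was left out (adjusted p from 0.178 to 0.388). That call was also lost with the 15% mitochondrial limit (edgeR adjusted p = 0.15) and with no replicate block (0.0511). With the tuft-like gate raised to 4 markers, the Jag2 level in tuft-like cells was 9.94, 12.9 and 9.51 CPM. No wild-type Jag2 UMI was found in mesothelial-like, mural-like, fibroblast-like, macrophage- and monocyte-like, neutrophil-like, T, NK and ILC-like or B-like cells.

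Dll1 (ENSMUSG00000014773, chr17:15367354-15376872, minus strand), a Delta-like ligand, was found in the duct lining and, on few UMIs, in blood endothelial-like cells. Cholangiocyte-like cells had 64.0, 35.0 and 11.6 CPM (log2 2.57 over the other classes, SE 0.30, adjusted p = 3.05e-08) and tuft-like cells 54.9, 27.4 and 12.5 CPM (log2 2.26, SE 0.36, adjusted p = 7.25e-06). Both classes were highest in wild-type library 1 and lowest in library 3, so the spread between libraries, 36.9 ± 26.2 CPM in cholangiocyte-like cells, was nearly as large as the mean. Mucous-like cells, which carry gastric-type mucin genes, had 8.68, 13.4 and 15.3 CPM without that order. Their difference from cholangiocyte-like cells did not pass the edgeR test (log2 -1.23, SE 0.39, adjusted p = 0.10). In that comparison 0 of 7 genes passed (2.57% of all genes called). At an unadjusted p under 0.05 it was 1 of 7, against 882 of all 8779 genes. After thinning, 9.71% (8.66 to 10.8), 5.07% (3.92 to 6.43) and 1.64% (0.85 to 2.85) of cholangiocyte-like cells had a Dll1 UMI (31.6%, 15.0% and 4.79% unthinned), against 0 of 112, 146 and 83 macrophage- and monocyte-like cells, which allows shares of up to 2.68%, 2.05% and 3.61% when the limit is set at 3 counts over the cells rather than by the exact interval. Blood endothelial-like cells were at 32.2, 32.5 and 35.3 CPM on 8 UMIs in all, level with the mean of cholangiocyte-like cells and above them in wild-type library 3. They did not pass against the other classes (adjusted p = 0.0841), but did in the added fit of classes with at least 5 cells (adjusted p = 0.0274). Fibroblast-like cells held 1 UMI and macrophage- and monocyte-like cells 4, ratios to other gated cells of 0.0205 (0.000519 to 0.114) and 0.0414 (0.0113 to 0.106). Both were called lower, and each call held under 7 of 12 alternatives. Each was lost without wild-type library 1 or 2, with no replicate block and in the added fit. An antisense gene, A930024N18Rik, shares 20.5% of the exon bases of Dll1, the largest such overlap among the 10 genes, and whether counting used strand is not given in the sources used here.

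Dll4 (ENSMUSG00000027314, chr2:119325784-119335962, plus strand), the endothelial Delta-like ligand whose upstream sequence is printed above, was at 86.5, 44.9 and 17.5 CPM in lymphatic endothelial-like cells and 53.6, 65.0 and 11.8 CPM in blood endothelial-like cells. The ranges of the 2 endothelial classes overlapped (log2 of blood minus lymphatic -0.24, SE 0.72, adjusted p = 0.972). Lymphatic endothelial-like cells had 39.3 times (22.6 to 65.7) and blood endothelial-like cells 31.7 times (14.5 to 62.1) the pooled cholangiocyte-like level, and both were called against the other classes (adjusted p = 3.85e-07 and 4.58e-05). No Dll4 UMI was found in wild-type mesothelial-like, mural-like, fibroblast-like or macrophage- and monocyte-like cells.

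**Figure D2:**
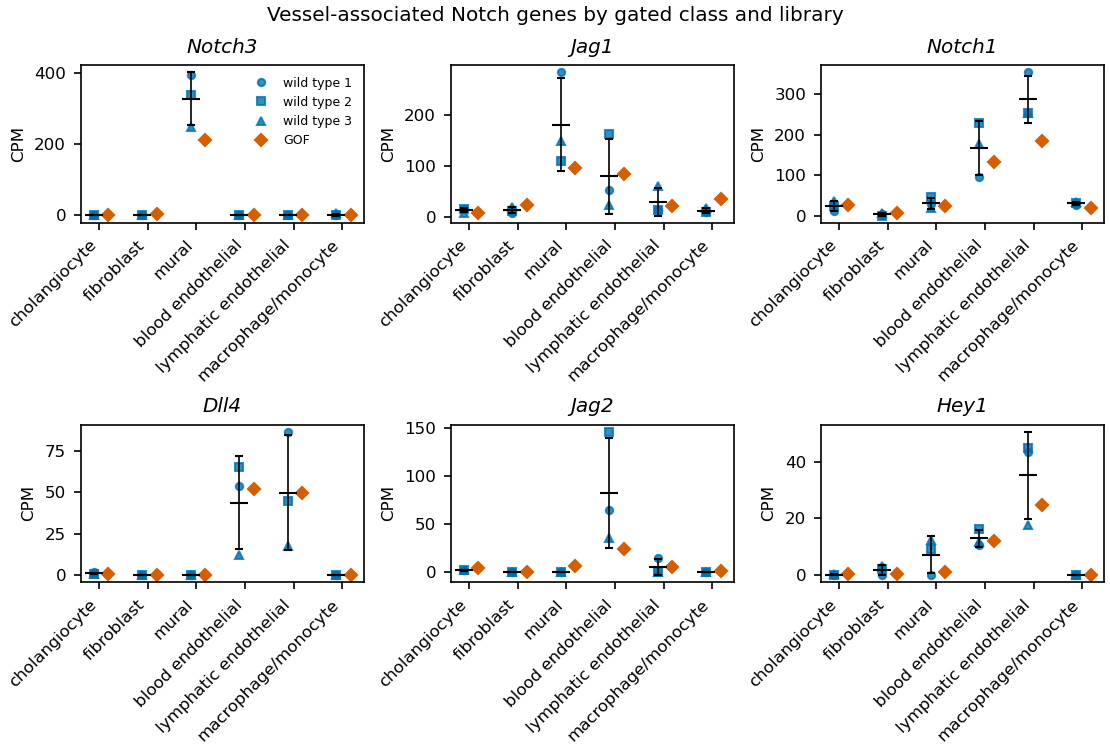
CPM of 6 Notch genes in 6 cell classes, with a point per library and a bar for the wild-type mean with its SD (n = 3). Notch3 and Jag1 peak in mural-like cells, and Notch1 and Hey1 in lymphatic endothelial-like cells. Jag2 peaks in blood endothelial-like cells, where 6, 9 and 3 UMIs were counted. Dll4 is about level in both endothelial classes, whose ranges overlap.

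Hes1 (ENSMUSG00000022528, chr16:30064384-30067796, plus strand), the target most often read as a sign of Notch activity, was found in every class. The levels were 373, 454 and 546 CPM in mucous-like cells (log2 1.57, SE 0.22, adjusted p = 6.97e-07), 294, 377 and 599 CPM in cholangiocyte-like cells (log2 1.44, SE 0.21, adjusted p = 1.45e-06) and 267, 376 and 576 CPM in tuft-like cells (log2 1.19, SE 0.22, adjusted p = 6.93e-05). The ranges of the 3 epithelial classes overlapped, and the pairs did not differ beyond their spread (adjusted p = 0.985 for mucous-like and 0.98 for tuft-like against cholangiocyte-like cells). Lymphatic endothelial-like cells (231, 277 and 472 CPM), mural-like cells (226, 220 and 379 CPM) and blood endothelial-like cells (172, 211 and 247 CPM) came next, each overlapping its neighbour in the order. Blood endothelial-like cells fell below cholangiocyte-like cells by 1.35 on the log2 scale (SE 0.37, adjusted p = 0.00597), a call lost without wild-type library 2 or 3 (adjusted p = 0.0579 and 0.0593).

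Lower in the Hes1 order came fibroblast-like cells (86.8, 59.7 and 151 CPM), B-like cells (42.8, 66.0 and 162 CPM), mesothelial-like cells (75.0, 61.6 and 107 CPM), macrophage- and monocyte-like cells (60.4, 66.0 and 87.6 CPM) and neutrophil-like cells (98.7, 47.0 and 0 CPM). Mesothelial-like and macrophage- and monocyte-like cells were called below the other classes, with log2 -1.33 (SE 0.30, adjusted p = 0.000726) and -1.47 (SE 0.29, adjusted p = 0.000116), under every alternative run. Fibroblast-like and neutrophil-like cells were also called lower (adjusted p = 0.00662 and 0.0406), calls lost under 4 and 5 of 12 alternatives, with the largest adjusted p at 0.194 and 0.473; the fibroblast-like one was lost without wild-type library 1 or 2 and the neutrophil-like one without library 2 or 3. T, NK and ILC-like cells were lowest, at 8.06, 21.1 and 0 CPM. Wild-type library 3 had the highest Hes1 of the 3 in every class shown except neutrophil-like and T, NK and ILC-like cells.

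Hey1 (ENSMUSG00000040289, chr3:8663359-8667256, minus strand), a target best known in vessels, was at 43.2, 44.9 and 17.5 CPM in lymphatic endothelial-like cells, from 6, 6 and 2 UMIs. Cholangiocyte-like cells had 4 UMIs in all, which made the lymphatic level 454 times theirs (143 to 1894). Blood endothelial-like cells held 1 UMI in each wild-type library and mural-like cells 0, 1 and 2. The other Hey genes, counted among the further pathway genes, had most of their UMIs in mural-like cells: Hey2 was at 169, 82.5 and 99.4 CPM and Heyl at 141, 174 and 230 CPM in mural-like cells, with 0 and 2 UMIs in fibroblast-like cells. In the added fit Hey2 was also called higher in macrophage- and monocyte-like cells (0, 1 and 4 UMIs, adjusted p = 0.0489) and in blood endothelial-like against cholangiocyte-like cells (0, 0 and 2 UMIs, adjusted p = 0.0142).

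Of the 7 genes tested between blood endothelial-like and cholangiocyte-like cells, 4 were higher in the vessel cells and 1 lower (11.6% and 13.6% of all genes). Jag1, Jag2 and Dll4 could pass the filter on low counts through endothelial-like sums, so this count is no separate support. Notch1 (log2 2.44, SE 0.49, adjusted p = 0.000283), Jag1 (log2 1.99, SE 0.55, adjusted p = 0.00612; 0.337 without wild-type library 2), Jag2 (pooled ratio 53.1, 29.8 to 90.1; adjusted p = 2.25e-06) and Dll4 (adjusted p = 3.6e-05) were higher. Hes1 was the lower one. Between mesothelial-like and fibroblast-like cells 0 of 7 differed by edgeR (9.96% of all genes called). At an unadjusted p under 0.05 it was also 0 of 7, against 1745 of all 8779 genes.

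A list of 44 further pathway genes (modifying enzymes, proteases, co-activators, inhibitors and other Hes and Hey genes) gave 30 tested genes in the wild-type classes. In blood endothelial-like cells 3 were higher and 0 lower, at the background of 9.59% and 3.16%, among them the Fringe genes Mfng (129, 65.0 and 70.6 CPM, against at most 0.376 CPM in cholangiocyte-like cells) and Lfng (75.1, 114 and 165 CPM; log2 1.78, SE 0.55, adjusted p = 0.0285), whose enzymes add sugars to Notch and shift its choice of ligand. The third, Nrarp, a target that feeds back on the pathway, was at 32.2, 32.5 and 70.6 CPM. Mfng had no wild-type UMI in lymphatic endothelial-like cells, where 8 were higher and 3 lower (all genes 13.4% and 5.42%), led by Dtx1, a regulator of receptor traffic, at 295, 269 and 245 CPM. In cholangiocyte-like cells 2 were higher and 5 lower (all genes 27.3% and 9.07%), and Lfng was among the lower, at 2.22, 3.74 and 7.70 CPM (log2 -3.23, SE 0.37, adjusted p = 1.92e-08). Nrarp in cholangiocyte-like cells, named after its values were seen, had 11.4, 4.43 and 0.188 CPM, the same order over the libraries as Dll1.

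By the correlation of mean log2(CPM + 1) over 9 wild-type classes, among 9389 genes, the pattern most like that of Hey1 was Sox18 (Pearson r = 0.989), followed by Bcl6b and Hoxd8. Dll1 was most like Fnbp1l (r = 0.969), Amot and Fgfr3, and Dll4 most like Rnf125 (r = 0.979) and Gpr182. Notch1 was most like Prkch (r = 0.945), Notch2 like Arrb2 (r = 0.982), Jag1 like Crtc2 (r = 0.989), Jag2 like Npnt (r = 0.929) and Hes1 like Pnkd (r = 0.983). These are descriptions over 9 points that share libraries and depth. Mural-like cells, where Jag1 was highest, were not among the 9 classes.

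The comparison of GOF with wild type asks what mosaic activation of beta-catenin did to the 10 genes, and it carries a limit of its own. Per the file headers the GOF matrix came from Cell Ranger 7.0.0 and the wild-type ones from 3.0.2, so genotype and processing cannot be told apart by design. The median mitochondrial share was 2.99% in the GOF library against 10.1%, 11.5% and 14.8%. Ctnnb1 itself was at 571, 558 and 459 CPM in wild-type and 278 CPM in GOF cholangiocyte-like cells, but a 3′ count does not tell an activated transcript from a normal one. The feedback target Axin2 was at 2.56, 5.71, 5.26 and 87.0 CPM and Nkd1 at 0.0288, 0.296, 0.188 and 71.3 CPM, with GOF far above the wild-type range. TMM scaling lowers GOF log2 differences by 0.35 in cholangiocyte-like cells relative to scaling by total UMIs, and by 0.05 to 0.29 in the other classes. Tests used TMM, and printed CPM did not.

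In cholangiocyte-like cells 0 of the 9 genes tested were called (14.7% of all genes were). In edgeR 2 of the 9 had an unadjusted p under 0.05, as did 5308 of all 15593 genes. DESeq2 called 2, and its share over all genes was not counted. Hes1 was at 294, 377, 599 and 187 CPM, with GOF below all wild-type libraries (log2 -1.55, SE 0.47, adjusted p = 0.0794). It passed the threshold when any 1 wild-type library was left out (adjusted p from 0.00701 to 0.0354) and with DESeq2 (adjusted p = 0.00628), and was furthest from it with TMM factors taken from genes of at most 5 kb of intron (adjusted p = 0.126). The share of cells with a Hes1 UMI after thinning was 35.2%, 42.0% and 55.9% in wild type and 28.5% in GOF, against 8.04%, 8.90%, 10.8% and 3.60% in macrophage- and monocyte-like cells, a class with low Hes1; unthinned, 62.5%, 59.4%, 63.6% and 58.8% of cholangiocyte-like cells had one.

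Jag1 in cholangiocyte-like cells was at 15.9, 16.5, 9.58 and 8.13 CPM, GOF again lowest (log2 -1.15, SE 0.35, adjusted p = 0.0769), and was called without wild-type library 3 (adjusted p = 0.00326), with the 15% mitochondrial limit (0.0447) and with DESeq2 (0.0478). Dll1 was at 64.0, 35.0, 11.6 and 15.1 CPM, GOF inside the wild-type range (log2 -1.66, SE 0.83, adjusted p = 0.216), and was called without wild-type library 3 (adjusted p = 0.00115). Dll4 had 53, 9, 4 and 19 UMIs with GOF below the range at 0.465 CPM (adjusted p = 0.226). Jag2 stood above it, at 3.72 CPM against 1.30, 1.87 and 1.31 (pooled ratio 2.63, 1.97 to 3.54; adjusted p = 0.235), and so did Notch3 at 1.44 CPM against 0.374, 0 and 0.188 (adjusted p = 0.196). Notch1 at 25.5 CPM and Notch4 at 1.05 CPM lay inside the wild-type range. The fitted differences of Notch1 (log2 -0.27, SE 0.58) and Notch2 (33.5 CPM in GOF; log2 -0.17, SE 0.24) were near 0 and turned to 0.10 and 0.19 with total-UMI scaling. Over all genes tested, 18.0% lay below and 56.9% above the wild-type range in this class, and 22.3% and 43.6% did in tuft-like and 16.5% and 47.1% in mucous-like cells. The same shares were 20.6% and 37.4% in mesothelial-like, 20.5% and 39.1% in fibroblast-like, 28.6% and 37.3% in blood endothelial-like and 22.9% and 38.7% in lymphatic endothelial-like cells. They were 29.1% and 34.6% in macrophage- and monocyte-like and 12.6% and 31.4% in neutrophil-like cells. Against these, Hes1 lay below the range in 6 of the 9 classes and above it in 1.

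**Figure D3:**
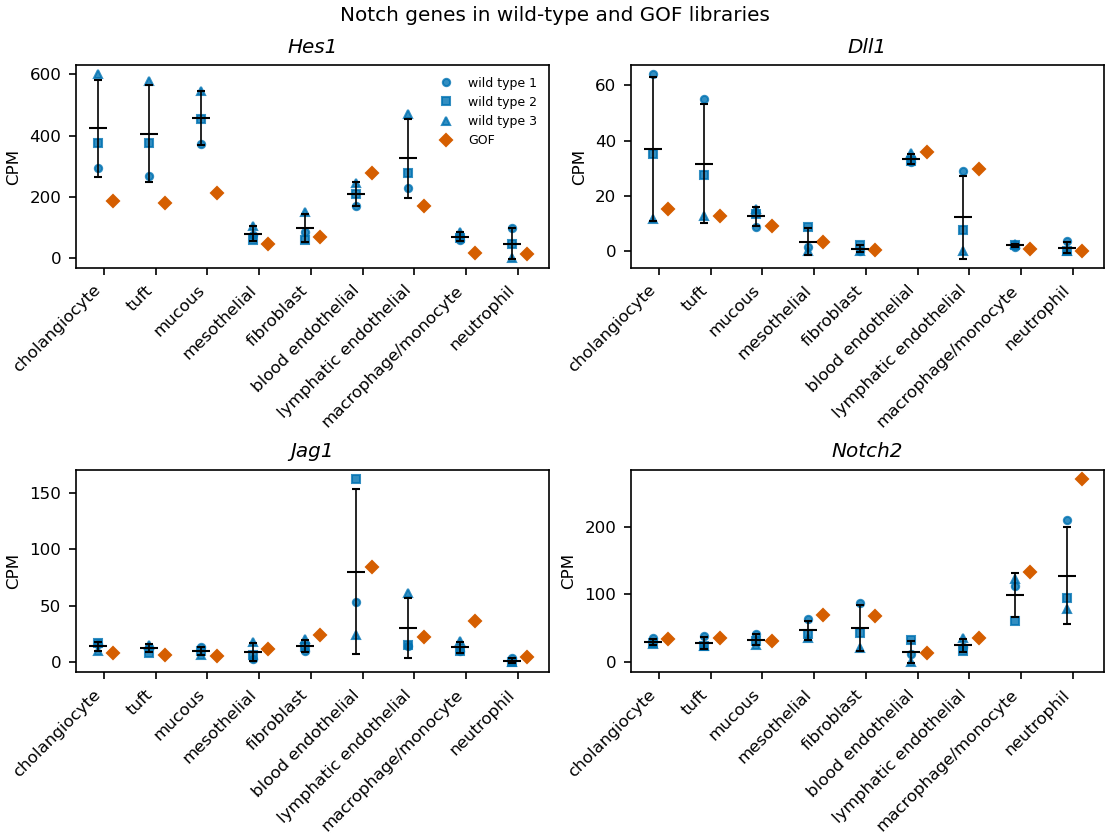
CPM of Hes1, Dll1, Jag1 and Notch2 in 9 cell classes, with a point for each wild-type library and for the GOF library and a bar for the wild-type mean with its SD (n = 3). The GOF point of Hes1 is under all 3 wild-type points in 6 of the 9 classes and above them in blood endothelial-like cells.

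Hes1 was called lower in 4 classes, none of them the cholangiocyte-like one. In macrophage- and monocyte-like cells it was at 60.4, 66.0, 87.6 and 18.3 CPM (log2 -1.98, SE 0.45, adjusted p = 0.0155), with a pooled ratio of 0.268 (0.218 to 0.332), and this call held under all 11 alternatives. Check genes of this class differed too. Lyz2 was at 13067, 5904, 7976 and 20181 CPM and Cd68 at 533, 840, 626 and 383 CPM. Eng was at 50.3, 37.0, 34.5 and 12.5 CPM and Ptgs1 at 116, 150, 74.3 and 42.1 CPM. Their part in the Hes1 result, and in the Jag1 result for this class given below, was not tested. Hes1 was the 1 of 4 genes called (2.38% of all genes were called lower). In mucous-like cells it was at 373, 454, 546 and 213 CPM (log2 -1.39, SE 0.40, adjusted p = 0.0430), 1 of 5 tested (2.8% of all genes called lower). In lymphatic endothelial-like cells it was at 231, 277, 472 and 170 CPM (log2 -1.07, SE 0.38, adjusted p = 0.0476), 1 of 3 tested (4.97%). The mucous-like call was lost without the highest-UMI cells (adjusted p = 0.0692), the lymphatic one without wild-type library 3 (0.107) and with DESeq2 (0.366), and both with total-UMI scaling (0.0739 and 0.130).

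In tuft-like cells 2 of 7 genes were called lower (6.12% of all genes were), Hes1 and Dll1. Hes1 was at 267, 376, 576 and 179 CPM (log2 -1.35, SE 0.42, adjusted p = 0.0375), but missed the threshold with total-UMI scaling (0.0634), and the thinned share of cells with a Hes1 UMI, 20.3%, 27.8%, 30.9% and 27.1%, put GOF inside the wild-type range; no order is read from that share. Dll1 was at 54.9, 27.4, 12.5 and 12.6 CPM, GOF level with wild-type library 3 (log2 -1.69, SE 0.46, adjusted p = 0.0214), and was lost without wild-type library 1 (0.199) and with DESeq2 (0.200). The GOF tuft-like gate took in 1016 cells at a median of 21683 UMIs, with Gnat3 at 44.9 CPM. With 4 markers, an alternative added after this was seen, 247 cells and a Gnat3 level of 250 CPM remained (126, 88.9 and 114 CPM in wild type), and the same 2 of 7 genes were called lower (4.02%): Hes1 with log2 -1.70 (SE 0.47, adjusted p = 0.0238) and Dll1, now at 43.3, 25.8, 15.9 and 10.0 CPM, with log2 -1.84 (SE 0.42, adjusted p = 0.00922).

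Elsewhere Hes1 did not pass: mesothelial-like cells were at 75.0, 61.6, 107 and 46.0 CPM (log2 -0.92, SE 0.40, adjusted p = 0.202), fibroblast-like cells at 86.8, 59.7, 151 and 69.2 CPM (log2 -0.68, SE 0.53, adjusted p = 0.526) and neutrophil-like cells at 98.7, 47.0, 0 and 16.1 CPM (log2 -2.19, SE 1.10, adjusted p = 0.417). Blood endothelial-like cells went the other way, at 172, 211, 247 and 280 CPM, with GOF above the range (log2 0.34, SE 0.43, adjusted p = 0.628). None of the genes tested was called in these classes: 0 of 2 in mesothelial-like (8.71% of all genes called), 0 of 2 in fibroblast-like (6.09%), 0 of 4 in blood endothelial-like (18.2%) and 0 of 3 in neutrophil-like cells (3.83%). At an unadjusted p under 0.05 in edgeR there were 1, 0, 0 and 0, in the same order. Over all genes these counts were 1672 of 8033, 1347 of 7109, 711 of 2377 and 583 of 4619.

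**Figure D4:**
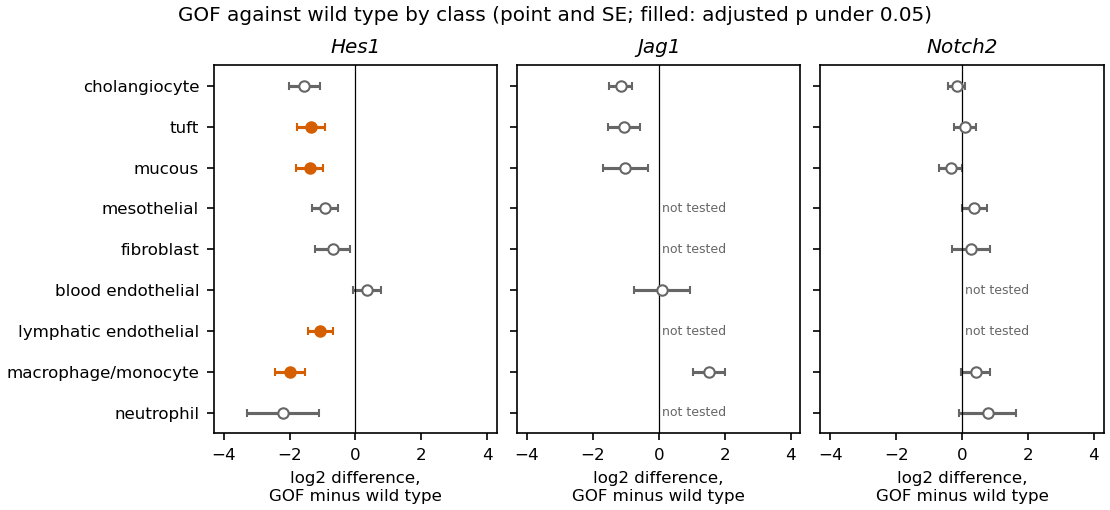
edgeR log2 difference of GOF from wild type ± SE in 9 cell classes for Hes1, Jag1 and Notch2, with filled points for an adjusted p under 0.05. Hes1 is filled in 4 classes (tuft-like, mucous-like, lymphatic endothelial-like, and macrophage- and monocyte-like), and Jag1 has opposite signs in the epithelial classes and in macrophage- and monocyte-like cells.

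Immediate early genes, which respond to dissociation and other stimuli within minutes, differed in the same comparison. Of 10 such genes, 4 were called higher in GOF cholangiocyte-like cells, 9 in tuft-like, 7 in mucous-like, 8 in mesothelial-like, 1 in fibroblast-like, 10 in blood endothelial-like, 6 in lymphatic endothelial-like, 4 in macrophage- and monocyte-like and 1 in neutrophil-like cells, none lower; the median log2 differences ran from 0.73 to 2.91. Over all genes, 11.3%, 13.4%, 9.03%, 6.82%, 5.19%, 12.4%, 11.2%, 8.43% and 3.29% were called higher in these classes, in the same order. In cholangiocyte-like cells Fos was at 341, 657, 1153 and 3551 CPM and Atf3 at 8.70, 14.6, 19.0 and 2704 CPM. Among the wild-type libraries, the one with the highest Fos also had the highest Hes1 in that class, the highest mitochondrial share and the lowest Dll1. Their part in the Hes1 result was not tested. The 2 phagocyte genes checked outside the gates also moved in GOF epithelium: in cholangiocyte-like cells Lyz2 was at 3.57, 21.6, 12.4 and 174 CPM and Cd68 at 11.6, 11.5, 12.2 and 17.5 CPM. Their part was not tested either.

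The GOF differences of Jag1 had opposite signs in epithelium and in phagocytes. In macrophage- and monocyte-like cells it was at 10.1, 10.0, 18.6 and 36.0 CPM, from 7, 10, 7 and 520 UMIs, with GOF above the range (pooled ratio 3.11, 2.06 to 4.89; log2 1.53, SE 0.49, adjusted p = 0.0691). In GOF tuft-like (6.42 CPM) and mucous-like cells (5.61 CPM) it lay below the wild-type ranges of 8.30 to 15.0 and 6.58 to 13.0 CPM, without a call (adjusted p = 0.154 and 0.408); with the 4-marker gate it lay inside the tuft-like range, at 9.94, 3.87, 15.9 and 5.02 CPM. The difference between the GOF effects in cholangiocyte-like and in macrophage- and monocyte-like cells, tested as an interaction of class and group within libraries and added after the data were seen, was -2.72 on the log2 scale (SE 0.62, adjusted p = 0.000922). It was the 1 of 9 genes called in that comparison (1.29% of all genes were called in that direction), and ranged from -3.26 to -2.41 with an adjusted p of at most 0.0142 over 10 alternatives. Hes1 had no such difference beyond its error (log2 0.51, SE 0.50, adjusted p = 0.909). Between cholangiocyte-like and fibroblast-like cells 0 of 9 genes were called (1.1% of all genes called). At an unadjusted p under 0.05 it was 1 of 9, against 896 of all 14409 genes. That gene was Jag1 (log2 -1.66, SE 0.70, edgeR adjusted p = 0.489).

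None of the remaining receptors and ligands was called. Dll4 in tuft-like cells was at 4.38, 1.66, 7.52 and 1.26 CPM (log2 -1.81, SE 1.26, adjusted p = 0.362), inside the range with the 4-marker gate, and Jag2 in blood endothelial-like cells was at 64.4, 146, 35.3 and 24.0 CPM (log2 -1.74, SE 1.47, adjusted p = 0.444); both differences were large with large errors. Notch1 in lymphatic endothelial-like cells was at 353, 254, 253 and 185 CPM, with GOF below all wild-type libraries (log2 -0.79, SE 0.36, adjusted p = 0.137), and in macrophage- and monocyte-like cells at 25.9, 31.0, 34.5 and 18.2 CPM (log2 -0.77, SE 0.43, adjusted p = 0.301). Notch2 stood above the wild-type range in GOF mesothelial-like, macrophage- and monocyte-like and neutrophil-like cells without passing (adjusted p = 0.657, 0.612 and 0.823). Dll4 in lymphatic endothelial-like cells was at 86.5, 44.9, 17.5 and 49.4 CPM, GOF in the middle (log2 -0.20, SE 0.77, adjusted p = 0.890). In mural-like cells, not fitted because of the 8 cells of wild-type library 1, GOF Notch3 was at 210 CPM below 395, 339 and 248 (pooled ratio 0.706, 0.546 to 0.918) and GOF Jag1 at 97.1 CPM below 282, 110 and 149 (0.645, 0.445 to 0.945). Lyz2 in mural-like cells was at 28.2, 18.3, 6.21 and 386 CPM and Acta2 at 13793 CPM in GOF, below all wild-type libraries. The fibroblast collagens Col1a1 (56.4, 64.2, 155 and 772 CPM) and Col3a1 (28.2, 101, 118 and 1066 CPM) were higher in GOF mural-like cells, and the part of these genes in the ratios was not tested.

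Among the 44 further pathway genes, 4 of the 36 tested were higher and 0 lower in GOF cholangiocyte-like cells, a share near the 11.3% higher and 3.42% lower over all genes. They were the co-activators Maml2 (21.2, 19.6, 19.0 and 253 CPM; log2 3.31, SE 0.17, adjusted p = 0.00085) and Maml3 (31.3, 33.2, 32.9 and 274 CPM; log2 2.72), the Notch inhibitor Numb (12.8, 13.4, 10.7 and 62.8 CPM; log2 1.99) and Fbxw7 (15.1, 15.3, 13.9 and 48.6 CPM; log2 1.36), which marks the Notch intracellular domain for degradation. Maml2 was also called higher in tuft-like, mucous-like, mesothelial-like, fibroblast-like, both endothelial and macrophage- and monocyte-like cells, with log2 differences from 2.29 to 4.2, 8 of the 9 classes with the cholangiocyte-like one. These genes have long introns, 404.8 kb for Maml2, 408.7 kb for Maml3, 156.9 kb for Fbxw7 and 124.0 kb for Numb. Over 45 pathway genes, total intron length and the GOF log2 difference had a Spearman rho of 0.514 (a description across genes, which are not replicates), and among the 10 genes only Notch2 has over 100 kb, with 126.1 kb. Whether intronic reads were counted is not given in the sources used here. Rbpj, the DNA-binding partner, was at 132, 139, 101 and 340 CPM in macrophage- and monocyte-like cells (log2 1.40, SE 0.39, adjusted p = 0.0417). Rbpj has long introns too, 178.5 kb in total, and their part in its higher GOF level was not tested. In cholangiocyte-like cells the GOF difference of Rbpj was -0.13 on the log2 scale (SE 0.28, edgeR adjusted p = 0.776). In lymphatic endothelial-like cells Lfng was lower (57.6, 105, 201 and 43.2 CPM; log2 -1.59, SE 0.46, adjusted p = 0.0128).

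**Figure D5:**
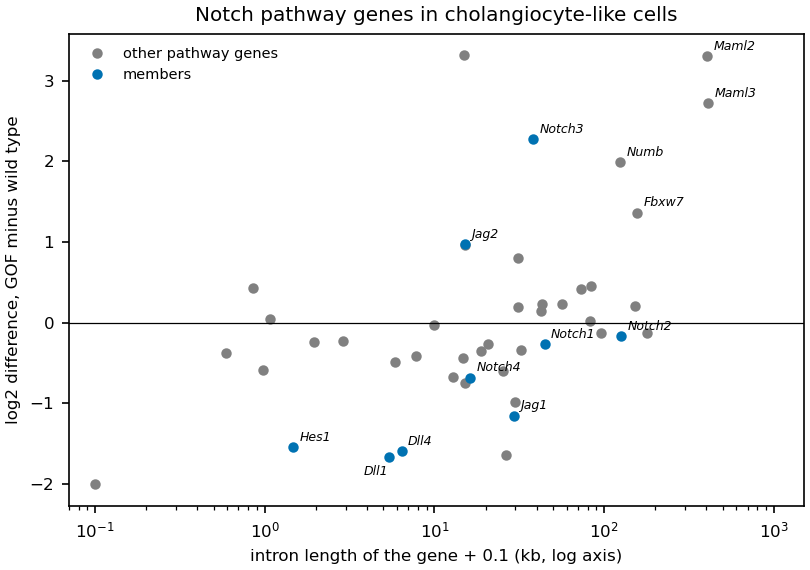
Total intron length of 45 pathway genes in kb plus 0.1, on a log axis, against the edgeR log2 difference of GOF from wild type in cholangiocyte-like cells, with the genes described here in blue. The 4 called genes, Maml2, Maml3, Numb and Fbxw7, sit at the right with over 100 kb of intron, while Hes1 with 1.4 kb sits low at the left.

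Because the gain of function is mosaic, GOF cholangiocyte-like cells were split by UMIs of Wnt feedback genes after thinning, a split added after the data were seen. Of 3548 cells, 574 (16.2%) had at least 2 such UMIs and 2514 had none, while no wild-type cell had 2. This is a range cut from a count within 1 library, so its values carry counting intervals and no test. Dll1 was at 8.08 CPM (6.0 to 10.6) in the cells with feedback UMIs and at 16.6 CPM (15.2 to 18.2) in the cells without. Jag2 was at 5.49 CPM (3.8 to 7.68) against 3.22 (2.59 to 3.95), intervals that overlapped. Notch1 was at 32.1 CPM (27.8 to 36.9) against 23.6 (21.8 to 25.5). These values are over all UMIs. In the thinned counts the intervals with and without feedback UMIs overlapped for each of these genes. They were 4.18 to 16.0 and 12.3 to 19.4 CPM for Dll1 and 3.01 to 13.7 and 1.82 to 5.17 CPM for Jag2. For Notch1 they were 22.7 to 44.4 and 19.2 to 27.9 CPM. Hes1 differed little, at 199 CPM (188 to 211) and 184 CPM (179 to 189), both below every wild-type library, and the intervals of Notch2 (32.8 and 33.1 CPM) overlapped. Jag1 was at 6.95 CPM (5.03 to 9.36) and 8.67 CPM (7.62 to 9.83) over all UMIs, and at 2.61 CPM (0.539 to 7.64, 3 UMIs) and 10.1 CPM (7.55 to 13.3) in the thinned counts.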

How the data were processed

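Cells of 4 mouse common bile duct libraries were profiled by 10x 3′ sequencing. The authors deposited raw UMI counts per gene and barcode, with barcodes already called as cells; Cell Ranger was 3.0.2 for wild type and 7.0.0 for GOF per the file headers, while the submitters' processing notes list 7.1 and mm10. The 30406 genes shared by the references of 31053 and 32285 genes were used. Cells needed 500 genes and at most 25% mitochondrial UMIs; a class needed 2 of its markers, 3 UMIs and 3 times the UMIs of any other class. Ccl21a, a lymphatic marker, was not matched, and the other markers served. Doublets were treated by leaving out cells of more than 1 lineage; no caller was run, and an alternative left out the highest-UMI cells at 0.8% per 1000 barcodes. Between libraries 1 to 9 barcodes were shared.

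Counts were summed per library and class, and tested with edgeR 4.0.16 in R 4.3.3 (quasi-likelihood, TMM, filterByExpr, Benjamini-Hochberg over all genes tested, threshold 0.05), with the library as a block in fits across classes. Classes needed 20 cells per library. DESeq2 1.42.0 was an alternative. No wild-type pair was a library deposited again: each pair differed by more than counting error (chi-square per degree of freedom 23.8 to 62.1). The fits were tested on simulated data.

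All 10 genes are named. Of the further pathway genes, at most the 4 called with the largest log2 difference and at least 20 CPM in the higher group are named per comparison, except where stated. Likeness used genes reaching 20 CPM and a pseudocount of 1 CPM. The genes and lists were chosen with earlier results of these data known.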

Additional observations from a re-analysis of the deposited data

Results flagged for a closer look

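The GOF effect on Jag1 differed between cell classes: in cholangiocyte-like cells minus macrophage- and monocyte-like cells it was -2.72 on the log2 scale (SE 0.62, adjusted p = 0.000922 by edgeR's test of the interaction). This comparison was added after the data were seen, and it rests on 1 GOF library. That library also differs from the wild-type ones in its Cell Ranger version. Neither class passed the test by itself. The wild-type macrophage- and monocyte-like values came from 24 UMIs in all. Check genes of that class differed in GOF too, and their part was not tested. Jag1 was at 15.9, 16.5 and 9.58 CPM in wild-type and 8.13 CPM in GOF cholangiocyte-like cells, and at 10.1, 10.0 and 18.6 CPM in wild-type and 36.0 CPM in GOF macrophage- and monocyte-like cells.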

How the results depend on the processing

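Of 40 results for single genes, 37 were called, and 20 of these kept their call under all alternatives while 17 lost it under at least 1. Over 474 alternative values, 418 stayed on their side of the threshold with the same direction, 48 lost the call, 8 gained it and 0 reversed. The share of all genes called was not counted under the alternatives, so the counts that follow cannot be read as particular to the Notch genes. In GOF cholangiocyte-like cells 0 genes were called, 1 with the 15% mitochondrial limit, 2 with DESeq2, and 1 to 3 when a wild-type library was left out (3 without library 3). In the other classes 5 were called, 2 with total-UMI scaling (chosen after seeing the data), 3 with DESeq2, and 4 to 6 when a library was left out. Among wild-type classes 24 were called, 18 to 22 when a library was left out and 21 with no replicate block; among pairs 7, 3 to 6 when a library was left out (3 without library 2) and 6 with no replicate block. The cause of these shifts was not tested. Leaving out a library changes both the number of libraries and which ones remain. No paired analysis was possible for GOF against wild type because there is 1 GOF library and its label carries no replicate number. Depth limits the low genes and small classes: a wild-type library held 0 or 1 UMIs of Notch4 in blood endothelial-like cells and 2 to 6 of Hey1 in lymphatic endothelial-like cells.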
